A study of Homo sapiens with 9 samples.

Results

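The genes described here encode the machinery that copies DNA and the supply of its building blocks, together with factors that rebuild chromatin behind the fork. They were chosen by symbol from a list of 37 names, all of which were found among the 25369 entries with a symbol, and all 37 were among the 16117 genes tested. By role, 10 members recognise origins or load the replicative helicase, 6 activate it, 6 are polymerase or primase subunits, 8 form or load the sliding clamp or process Okazaki fragments, 4 supply deoxynucleotides and 3 assemble chromatin or maintain DNA methylation.

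In each cell cycle, origins are marked by the origin recognition complex, and CDC6 and CDT1 then load the MCM helicase onto them in G1. The helicase is switched on at the start of S phase, when CDC45 and the GINS complex join it and DNA polymerases follow. Many of these genes are transcribed in late G1 and S phase under E2F transcription factors, which the pocket proteins hold in check in resting cells. YAP and TAZ, encoded by YAP1 and WWTR1, are transcriptional co-activators that are active in spread cells on stiff supports and are known to promote proliferation of epithelial cells.

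RNA was sequenced from 9 libraries of MCF10A, an established non-tumorigenic human mammary epithelial line. The cells carried a pBABEpuro retrovirus, either empty or coding for a constitutively active HER2, the receptor tyrosine kinase encoded by ERBB2. They were transfected with a control siRNA or with siRNA against YAP and TAZ, were replated 24 h later on plastic or on a polyacrylamide hydrogel of 0.5 kPa, a support far softer than plastic, and were harvested after a further 24 h. All were grown with horse serum, insulin, EGF, hydrocortisone and cholera toxin, which all groups therefore shared. Empty-vector cells with control siRNA on plastic gave 2 libraries, A and B. All other groups had 1 library each: in each line siRNA 1 on plastic, siRNA 3 on plastic and control siRNA on the hydrogel, and in HER2 cells control siRNA on plastic. The sources used here do not say whether the lines were clones or whether libraries came from separate cultures. The p-values therefore rest only on these libraries: on control A against B, and on how the difference between the siRNAs varied between the lines.

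Total counts ran from 24425556 in the HER2 control library to 78945981 for siRNA 3 in empty-vector cells, and the lowest count of any member was 61, for CHTF18 in empty-vector cells on the hydrogel. YAP1 stood at 83.9 and 85.1 CPM (counts scaled to library size, with TMM factors for composition) in empty-vector controls A and B, and at 14.3 with each of the siRNAs. In HER2 cells it was 115 CPM in the control, 9.75 with siRNA 1 and 18.9 with siRNA 3. WWTR1 was 77.4 and 76.9 CPM in the empty-vector controls, 14.0 with siRNA 1 and 21.6 with siRNA 3, and in HER2 cells it was 170, 29 and 48.2 CPM in the same order. Both targets were therefore lower with each reagent in each line. ERBB2 was 57.7 to 95.5 CPM over the empty-vector libraries and 361 to 614 CPM over the HER2 libraries. The 8 mammary epithelial markers summed to 1657 to 7397 CPM in empty-vector libraries and to 559 to 1009 CPM in HER2 libraries, where CDH1, KRT14 and TP63 were at or below 1.70 CPM. The 5 fibroblast markers summed to 5.80 to 104 CPM in empty-vector and 5.34 to 29.1 CPM in HER2 libraries, the 3 endothelial markers to 1.49 to 6.03 and 7.92 to 36.5 CPM, and the 4 leukocyte markers to 11.8 to 49.2 and 19.7 to 44.1 CPM. The leukocyte sums came almost entirely from CD68, since PTPRC and CD3E were at or near 0.

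Promoters of 34 members were present in a RefSeq table (build GRCh38.p14); those of MCM4, MCM5 and GINS4 are named only. The 250 bases before the start were searched on both strands for the E2F letters TTCCCGC and for their variants TTCGCGC, then also TTGGCGC, and finally TTGCCGC, which cannot contain one another. At least 1 match was present for 20 of 34 members (58.8%), against 2256 of 11293 tested genes in the table (20%) and 13.0% of all 27305 genes in it. The NF-Y letters CCAAT were present for 61.8% of members and 41.2% of tested genes, and the Sp1 letters GGGCGG for 73.5% and 70.8%. The CHR letters TTTGAA, known from promoters of mitotic genes, were present for 1 of 34 members (2.94%) and 12.8% of tested genes. These matches are descriptions of sequence and not of binding.

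Promoter stretches are shown for 3 members that have an E2F match and lay far below control on the hydrogel in empty-vector cells. They are written 5′ to 3′ on the strand of the gene, with E2F matches on either strand in capitals. Other members that fell far had 0 E2F matches, among them CHTF18 and MCM10. Without HER2, their fitted log2 fold changes from plastic to soft support were -3.75 and -3.36. Those of GINS2 and RRM2, which are shown, were smaller, at -3.15 and -3.11. The stretch of UHRF1 is chr19:4909351-4909500 (plus strand) and holds 2 matches, which begin 104 and 14 bases before the start. That of GINS2 is chr16:85688955-85689104 (minus strand), with 1 match that begins 31 bases before the start. That of RRM2 is chr2:10122318-10122567 (plus strand), with 1 match that begins 192 bases before the start. The table lists 3 starts for UHRF1, with 2, 1 and 0 matches, and 2 for RRM2, with 1 and 0, and a start with a match is shown for each.
UHRF1: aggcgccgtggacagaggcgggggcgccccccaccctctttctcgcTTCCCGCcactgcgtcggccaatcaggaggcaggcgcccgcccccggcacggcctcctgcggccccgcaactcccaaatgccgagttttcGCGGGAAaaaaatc
GINS2: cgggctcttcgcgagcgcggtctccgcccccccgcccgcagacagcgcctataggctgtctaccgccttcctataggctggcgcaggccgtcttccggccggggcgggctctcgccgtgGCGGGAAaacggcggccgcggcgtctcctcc
RRM2: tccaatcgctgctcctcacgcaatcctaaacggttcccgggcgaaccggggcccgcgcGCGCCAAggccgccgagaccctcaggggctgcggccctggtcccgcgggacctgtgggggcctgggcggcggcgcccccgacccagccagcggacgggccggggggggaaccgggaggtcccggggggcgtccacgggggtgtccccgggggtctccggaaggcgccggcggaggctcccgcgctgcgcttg

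In empty-vector cells all 37 members were lower after either siRNA, or on the soft hydrogel, than in both control libraries on plastic. In HER2 cells 33 members were below the control with siRNA 1, 15 on the hydrogel and all 37 with siRNA 3. Of all genes tested 45.2%, 47.4% and 45.6% were below the HER2 control in these libraries, in the same order. In empty-vector cells the median member stood at 16.8% of control with siRNA 1 (8.14% to 34.1%), at 21.1% with siRNA 3 (5.31% to 50.1%) and at 19.0% on the hydrogel (7.42% to 35.9%). In HER2 cells it stood at 81.1% with siRNA 1 (51.7% to 120%), at 32.3% with siRNA 3 (17.7% to 64.3%) and at 105% on the hydrogel (54.7% to 177%). The 3 perturbed empty-vector libraries lay below both controls for 37 of 37 members and for 25.3% of all genes tested, and below all 4 HER2 libraries for 32 members and for 14% of all genes. Bulk RNA cannot tell fewer cells in S phase from less of these transcripts in each cell. These 3 libraries share the same control libraries, and those of HER2 cells share 1 control library.

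**Figure D1:**
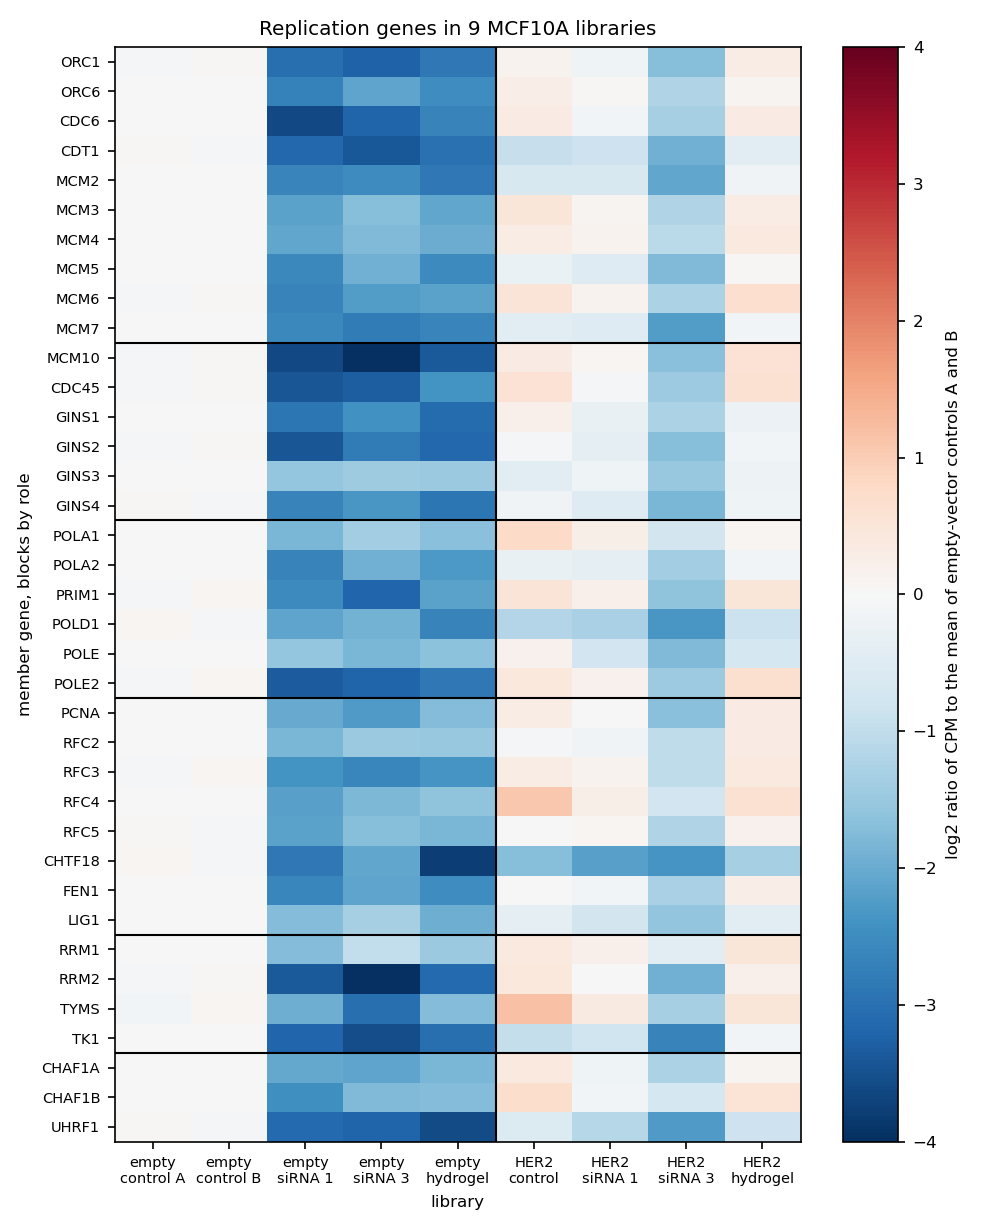
Level of each of the 37 members (one line each, blocks by role) in the 9 libraries, as the log2 ratio of CPM to the mean of empty-vector controls A and B, with blue lower and red higher. The siRNA 1, siRNA 3 and hydrogel columns of empty-vector cells are blue for all 37 members, and among the HER2 columns siRNA 3 is the lowest for all 37.

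**Figure D2:**
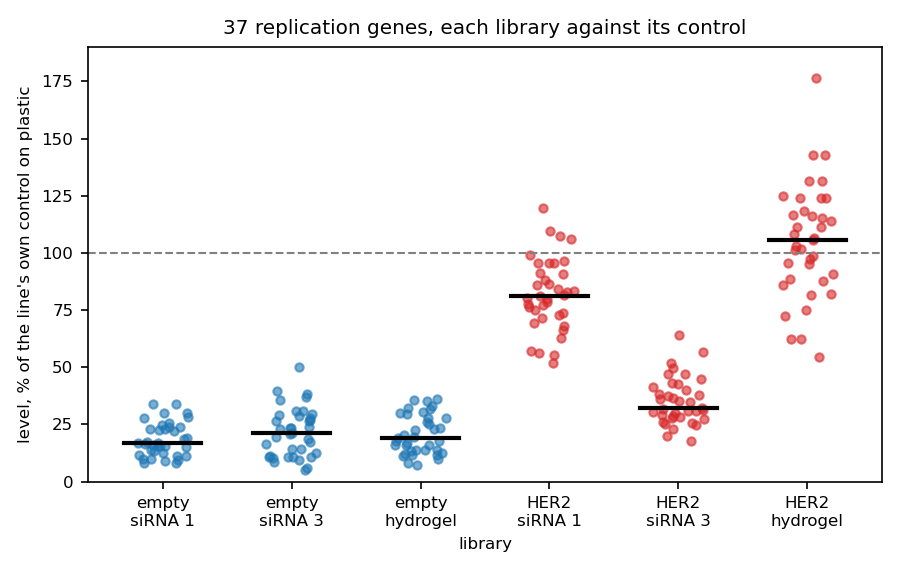
Percent of the line's own control on plastic (linear axis from 0) for each member, 1 point per member, with a black bar at the median and a dashed line at 100%. The medians are 16.8%, 21.1% and 19.0% in empty-vector cells and 81.1%, 32.3% and 105% in HER2 cells, in the order siRNA 1, siRNA 3, hydrogel.

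Among the helicase loading genes, MCM4, a subunit of the hexameric helicase, was at 359 and 364 CPM in the empty-vector controls, 85.9 after siRNA 1, 105 after siRNA 3 and 91.4 on the hydrogel. HER2 cells had 448 CPM in the control, 395 after siRNA 1, 171 after siRNA 3 and 477 on the hydrogel. The 3 perturbed empty-vector libraries did not overlap the controls, and in HER2 cells siRNA 3 alone lay far from the others. CDT1, the loading factor that is degraded once S phase begins, was at 31.2 and 28.7 CPM in the empty-vector controls, 3.36 after siRNA 1, 2.87 after siRNA 3 and 3.8 on the hydrogel. HER2 cells had 15.8 CPM of CDT1 in the control, 16.9 after siRNA 1, 7.84 after siRNA 3 and 22.5 on the hydrogel. All 4 HER2 libraries were thus between the empty-vector controls and the perturbed empty-vector libraries for CDT1. Over the 10 members of this role, including ORC1 and ORC6 of the origin recognition complex and MCM2 to MCM7, the median was 15.9% of control with siRNA 1, 19.2% with siRNA 3 and 16.6% on soft support, all in the empty-vector line. For HER2 it was 85.1%, 33.6% and 111% in the same order.

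For helicase activation, MCM10, which helps the loaded helicase open DNA, had both the highest mean CPM and the largest fold change of the role. It was at 103 and 111 CPM in the empty-vector controls, 8.87 after siRNA 1, 5.69 after siRNA 3 and 10.4 on the hydrogel. In HER2 cells MCM10 was at 135 CPM in the control, 112 after siRNA 1, 34.0 after siRNA 3 and 160 on the hydrogel. Every HER2 library, siRNA 3 included, lay above every perturbed empty-vector library. Within the GINS complex the members differed in size: GINS2 was at 9.36%, 14.3% and 11.2% of control with siRNA 1, siRNA 3 and hydrogel in empty-vector cells, and GINS3 at 34.1%, 36.9% and 35.5%. GINS3 was also the member of this role with the highest value after siRNA 1 in HER2 cells, at 120% of control.

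Of the polymerases, POLA1, the catalytic subunit of the primer-making polymerase alpha, was at 73.9 and 76.7 CPM in the empty-vector controls, 21.1 after siRNA 1, 28.8 after siRNA 3 and 23.8 on the hydrogel. In HER2 cells POLA1 was at 128 CPM in the control, 88.8 after siRNA 1, 45.2 after siRNA 3 and 79.6 on the hydrogel. Here the HER2 control was the highest of the 9 libraries, and all 3 perturbed HER2 libraries were below it. POLE2, an accessory subunit of the leading-strand polymerase epsilon, was at 29 and 31.8 CPM in the empty-vector controls, 3.05 after siRNA 1, 3.30 after siRNA 3 and 4.15 on the hydrogel. In HER2 cells it was at 40.7, 34.0, 11.1 and 47.3 CPM, in the order control, siRNA 1, siRNA 3, hydrogel. POLE2 and its catalytic partner POLE did not follow each other in HER2 cells, where POLE was at 51.7% of control with siRNA 1 and 54.7% on the hydrogel, the lowest member in each, against 83.5% and 116% for POLE2.

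PCNA, the sliding clamp that tethers polymerases to DNA, was at 280 and 291 CPM in the empty-vector controls, 70.4 after siRNA 1, 59.0 after siRNA 3 and 85.9 on the hydrogel. PCNA in HER2 cells was at 348 CPM in the control, 284 after siRNA 1, 88.6 after siRNA 3 and 359 on the hydrogel. The HER2 library with siRNA 3 was just above the highest perturbed empty-vector library for this gene. CHTF18, a subunit of an alternative clamp loader, was at 17.9 and 15.9 CPM in the empty-vector controls, 2.30 after siRNA 1, 4.0 after siRNA 3 and 1.25 on the hydrogel. In HER2 cells CHTF18 was at 5.16 CPM in the control, 3.77 after siRNA 1, 3.32 after siRNA 3 and 6.79 on the hydrogel. All 4 of its HER2 libraries were far below the empty-vector controls, and they overlapped the perturbed empty-vector libraries. The other 6 members of the role (RFC2 to RFC5, FEN1 and LIG1) were at 16.3% to 29.9% of control with siRNA 1 in empty-vector cells and at 55.5% to 106% in HER2 cells.

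In nucleotide supply, RRM1 and RRM2 encode the large and small subunits of ribonucleotide reductase, which makes deoxynucleotides. RRM1 was at 313 and 320 CPM in the empty-vector controls, 94.7 after siRNA 1, 159 after siRNA 3 and 114 on the hydrogel, and in HER2 cells at 418, 361, 238 and 441 CPM, in the order control, siRNA 1, siRNA 3, hydrogel. RRM2 was at 368 and 399 CPM in the empty-vector controls, 37.6 after siRNA 1, 23.0 after siRNA 3 and 44.3 on the hydrogel, and in HER2 cells at 512, 384, 101 and 441 CPM in the same order. The perturbed empty-vector libraries were below all others for both genes, and RRM2, whose transcript is cell-cycle regulated, lay further below control than RRM1 in each of them. TYMS, thymidylate synthase, was the lowest member with siRNA 3 in HER2 cells, at 17.7% of control, and TK1, thymidine kinase, the highest on the hydrogel, at 177%.

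CHAF1A, a subunit of the CAF-1 histone chaperone, was at 79.3 and 76.4 CPM in the empty-vector controls, 18.7 after siRNA 1, 18.2 after siRNA 3 and 21.8 on the hydrogel. CHAF1A in HER2 cells was at 102, 69.7, 32.6 and 83.3 CPM, in the order control, siRNA 1, siRNA 3, hydrogel. UHRF1, which recruits the maintenance DNA methyltransferase to newly copied DNA, was at 81.6 and 75.6 CPM in the empty-vector controls, 9.12 after siRNA 1, 8.46 after siRNA 3 and 6.55 on the hydrogel. In HER2 cells UHRF1 was at 53.6, 35.6, 16.4 and 43.9 CPM in the same order. For both genes the HER2 control was the highest of its line, and no HER2 library overlapped the perturbed empty-vector libraries.

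**Figure D3:**
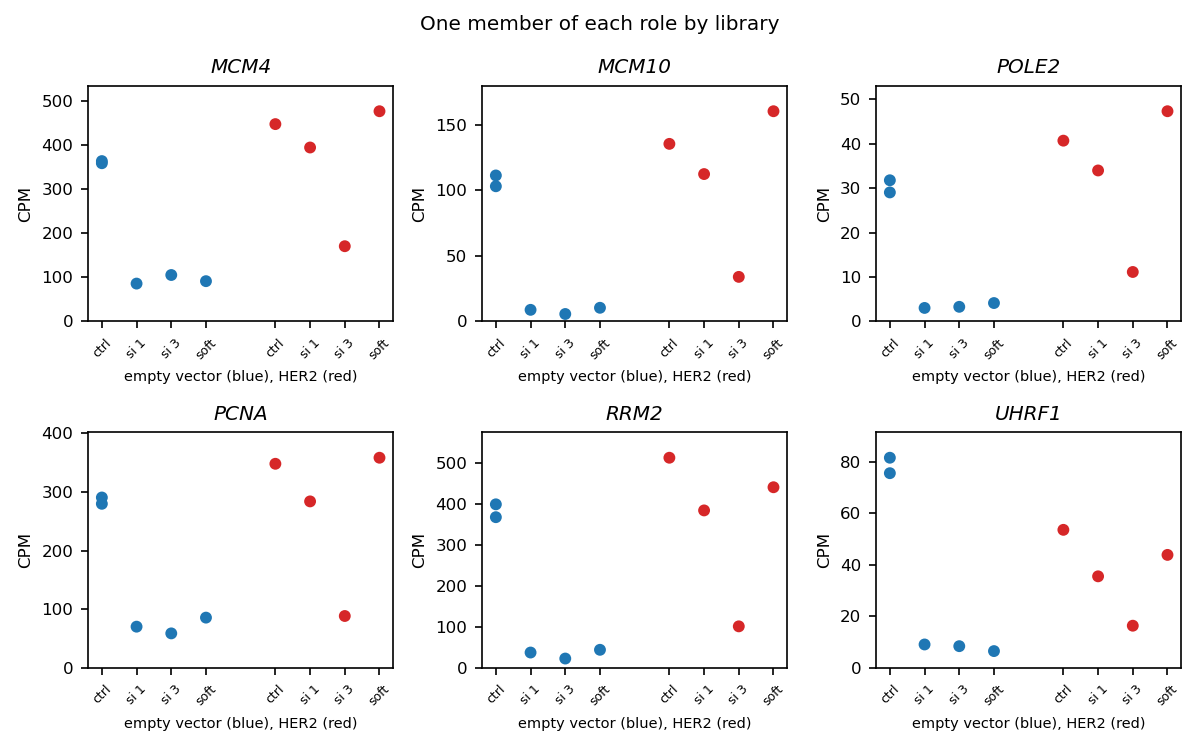
CPM (linear axes from 0) of 1 member per role in each of the 9 libraries, empty vector in blue and HER2 in red, 1 point per library. MCM10 falls from 103 and 111 CPM in the empty-vector controls to 5.69 to 10.4 CPM in the 3 perturbed libraries, and in HER2 cells it is at 34.0 CPM with siRNA 3 and 112 to 160 CPM in the others.

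The effect of the soft support in empty-vector cells was tested with edgeR's quasi-likelihood test, with p-values adjusted by Benjamini-Hochberg over all 16117 genes at a threshold of 0.05. On the hydrogel 28 of 37 members fell, against 9.95% of all genes tested that were called lower, and the median member's log2 fold change was -2.39 (-3.75 to -1.48), against 0.01 over all genes. By role, 8 of 10 helicase loading genes fell, 5 of 6 of helicase activation, 5 of 6 polymerase genes, 4 of 8 clamp genes, 3 of 4 of nucleotide supply and 3 of 3 chromatin genes. The log2 fold change (± SE) was -3.75 ± 0.43 for CHTF18 (adjusted p = 0.0145), -3.58 ± 0.38 for UHRF1 (adjusted p = 0.013), -3.36 ± 0.38 for MCM10 (adjusted p = 0.0141), -3.11 ± 0.41 for RRM2 (adjusted p = 0.017) and -2.98 ± 0.35 for CDT1 (adjusted p = 0.0147). POLE2 was at -2.87 ± 0.57 (adjusted p = 0.0312), MCM4 at -1.98 ± 0.47 (adjusted p = 0.0436) and CHAF1A at -1.84 ± 0.34 (adjusted p = 0.0283). The 9 that missed the threshold were MCM3, MCM6, GINS3, POLA1, PCNA, RFC2, RFC4, RFC5 and RRM1, with adjusted p-values from 0.0511 for PCNA to 0.0771 for GINS3 and all 9 below control. The hydrogel group has 1 library, which was assumed to vary like the others. Fewer members passed without control A or without control B. The count was 0 when siRNA 1 and siRNA 3 were taken as replicates, a fit that called 0 of all genes in this comparison.

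In HER2 cells 0 of 37 members passed the same test between hydrogel and plastic, where 0.186% of all genes were called in either direction. At an unadjusted p under 0.05 the edgeR count was 1 (POLE), and DESeq2 gave 0, against 11.7%. The fitted log2 fold changes had a median of 0.08 (-0.87 to 0.82) with a median SE of 0.47, and 22 of 37 were positive. TK1 had the highest value and POLE the lowest. When each group had its own mean, with the spread taken from controls A and B alone, 18 members passed. The 0 therefore does not show that the supports were alike for these genes in HER2 cells. Over all genes the highest count in any setting was 7909 of 16117, so the 18 are not read as a result about the members.

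The difference between the lines in their response to the hydrogel was tested as an interaction. No member passed the adjusted test, which called 0% of all genes, and the lowest adjusted p of edgeR's quasi-likelihood test among members was 0.0709. The interaction was positive, meaning less reduction in HER2 cells, for 37 of 37 members, against 7851 of 16117 genes tested. The members' median was 2.48 on the log2 scale (0.76 to 4.14). At an unadjusted p under 0.05 the edgeR count was 33 of 37, against 28% of all genes in either direction, and DESeq2 called 30 of 37, against 15.6%. The largest were CHTF18 at 4.14 ± 0.58 (adjusted p = 0.0709), TK1 at 3.85 ± 0.69 (adjusted p = 0.0761), MCM10 at 3.60 ± 0.52 (adjusted p = 0.0709) and CDT1 at 3.49 ± 0.48 (adjusted p = 0.0709).

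**Figure D4:**
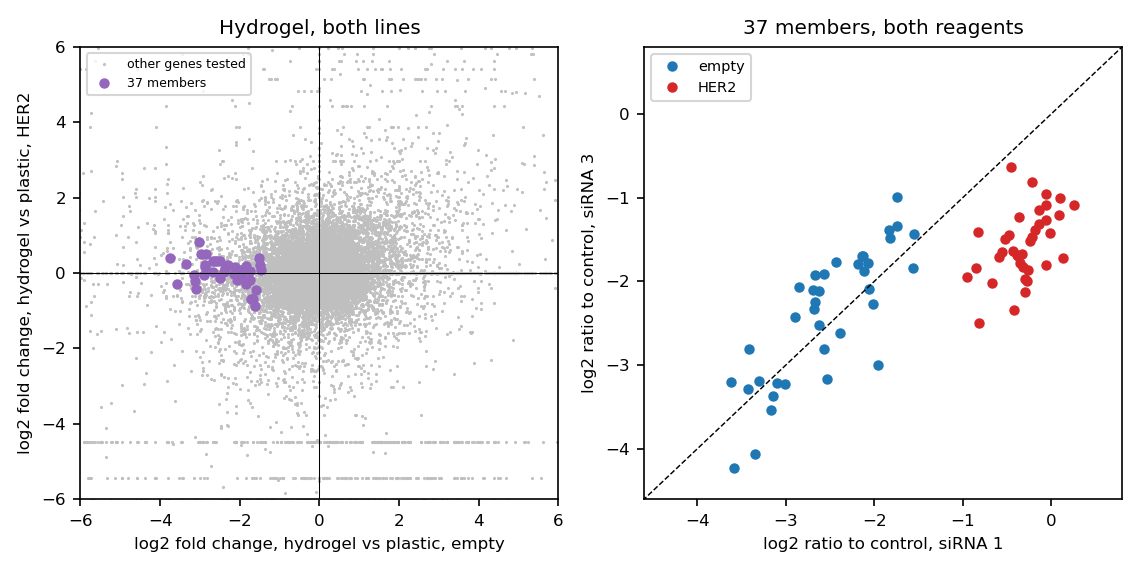
Left, fitted log2 fold change between hydrogel and plastic in empty-vector cells (x) and HER2 cells (y) for the 37 members (purple) and the other genes tested (grey; genes beyond 6 in either direction are not shown): the members lie at -3.75 to -1.48 on x and at -0.87 to 0.82 on y. Right, log2 ratio to control with siRNA 1 (x) and siRNA 3 (y) for each member, empty vector in blue and HER2 in red, with a dashed line of equal values: 37 of 37 HER2 points lie below the line and 24 of 37 empty-vector points lie above it.

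With the lines set against each other on the hydrogel, 31 of 37 members were higher in HER2 cells, against 11% of all genes tested. The median log2 difference was 2.57 (0.93 to 3.94), and all 37 were positive, against 7219 of 16117 genes tested. The largest were those of MCM10 (3.94 ± 0.41, adjusted p = 0.00787 by edgeR's quasi-likelihood test), POLE2 (3.51 ± 0.62, adjusted p = 0.0206), RRM2 (3.31 ± 0.44, adjusted p = 0.0121) and ORC1 (3.16 ± 0.47, adjusted p = 0.015). All 10 helicase loading genes, all 4 of nucleotide supply and all 3 chromatin genes passed, and the 6 that did not were GINS3, POLA1, POLA2, POLE, RFC5 and LIG1. The mammary epithelial markers differed between the lines in the same libraries, and their part in the difference was not tested. Each side of this comparison has 1 library, and the count was 0 when siRNA 1 and siRNA 3 were taken as replicates. Over all genes the lowest count in any setting was 244 here.

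On plastic 2 of 37 members differed between the lines by the adjusted test. TYMS was higher in HER2 cells (1.17 ± 0.23, adjusted p = 0.0268 by edgeR's quasi-likelihood test, with 9.08% of all genes called higher). CHTF18 was lower (-1.71 ± 0.38, adjusted p = 0.0364, with 13.2% of all genes called lower). The other 35 members did not pass, and the median over all 37 was 0.20. A single member in each direction is a smaller share than that of all genes. TYMS and CHTF18 both overlap exons of other genes (TYMS those of ENOSF1 and TYMSOS, CHTF18 those of GNG13 and RPUSD1) on the opposite strand, and neither passed without control A or without control B. With a mean for each group, 29 members passed, and the highest count over all genes in any setting was 9620.

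Each siRNA was then compared with control in each line. In the model used for testing, siRNA 3 and siRNA 1 differ by 1 term shared by both lines, so that its fitted fold changes are not the ratios of single libraries. For the members these parted: the fitted median log2 fold change in empty-vector cells was -2.13 for siRNA 1 and -2.59 for siRNA 3, where the observed log2 ratios had medians of -2.57 and -2.24. In HER2 cells the fitted medians were -0.61 and -1.12 and the observed ones -0.30 and -1.63. The observed order of the reagents thus differs from the fitted one in empty-vector cells.

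With siRNA 1 in empty-vector cells 23 of 37 members fell, against 6.56% of all genes called lower by edgeR's quasi-likelihood test. The largest fitted changes were MCM10 (-3.29 ± 0.33, adjusted p = 0.0121), CDC6 (-3.15 on the log2 scale), RRM2 (-3.01 ± 0.36, adjusted p = 0.0154), CDC45 (-3.00) and CDT1 (-2.91 ± 0.30, adjusted p = 0.0124). They were followed by GINS2, UHRF1, POLE2, TK1 and ORC1, at -2.83 to -2.65. CDC6 is the loading factor that works with CDT1, and CDC45 is part of the active helicase. The 14 that missed the threshold, among them MCM3 to MCM6, PCNA, POLA1 and RRM1, were all below control. Fewer members passed without control A or without control B. The count was 37 with DESeq2 (against 22.2% of all genes in either direction). It was 0 with the siRNAs taken as replicates, a fit that called 0 of all genes in this comparison.

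With siRNA 3 in empty-vector cells 37 of 37 members fell, against 16.6% of all genes called lower by edgeR's quasi-likelihood test, and the highest adjusted p was 0.0434, for RRM1. MCM10 (-4.49 ± 0.33, adjusted p = 0.00425), RRM2 (-4.34 ± 0.35, adjusted p = 0.00425) and TK1 (-3.88) had the largest fitted changes, followed by CDC45, CDT1, POLE2, CDC6, ORC1, PRIM1 and UHRF1 at -3.63 to -3.45. The smallest was that of RRM1, at -1.30 ± 0.34. Fewer members passed without control A or without control B. The count was 0 with the siRNAs taken as replicates, a fit that called 0 of all genes in this comparison.

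In HER2 cells siRNA 1 gave 0 members past the threshold, where 1.43% of all genes were called in either direction by edgeR's quasi-likelihood test. At an unadjusted p under 0.05 it was 4 of 37, against 23.4% of all genes, and DESeq2 gave 2, against 11.6%. All 37 fitted changes were negative (-1.15 to -0.06), against 7358 of 16117 genes tested. In the observed values 33 of 37 members were below control, against 45.2% of all genes tested. The exceptions, above control in the library with siRNA 1, were CDT1, GINS3, RFC5 and TK1.

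With siRNA 3 in HER2 cells 5 of 37 members fell, against 6.28% of all genes called lower. They were TYMS (-2.33 ± 0.26, adjusted p = 0.02 by edgeR's quasi-likelihood test), RRM2 (-2.01 ± 0.39, adjusted p = 0.0386), PRIM1 (-1.80 ± 0.39, adjusted p = 0.048), POLE (-1.76 ± 0.26, adjusted p = 0.0282) and MCM10 (-1.71 ± 0.35, adjusted p = 0.0434). PRIM1 is the catalytic subunit of primase, which starts each new strand. The observed values were lower than control for all 37 members, and siRNA 3 was the lowest of the 4 HER2 libraries for all 37, against 29.4% of all genes tested. Fewer members passed without control A or without control B. The count of 5 became 0 with the siRNAs taken as replicates, and 16 with DESeq2, against 21.1% of all genes in either direction. Over all genes the lowest count in any setting was 0 here.

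The reagents were also set against each other. By the shared term 3 of 37 members were lower with siRNA 3 than with siRNA 1, against 9.36% of all genes called lower. The members' share is thus no larger than that of all genes. The 3 were TYMS (-1.38 ± 0.20, adjusted p = 0.0176 by edgeR's quasi-likelihood test), RRM2 (-1.32 ± 0.30, adjusted p = 0.0434) and MCM10 (-1.20 ± 0.27, adjusted p = 0.0442). Fewer members passed without control A or without control B. The observed log2 difference between siRNA 3 and siRNA 1 had a median of 0.29 over the members in empty-vector cells (-1.05 to 0.79) and of -1.25 in HER2 cells (-1.92 to -0.18). In empty-vector cells 24 of 37 members were higher with siRNA 3, against 46.3% of all genes tested. In HER2 cells 37 of 37 were lower, against 50.6%. The pattern of higher in the one line and lower in the other held for 24 of 37 members and for 15.1% of all genes tested. YAP1 was at 14.3 CPM with both reagents in empty-vector cells and was not lower with siRNA 3 than with siRNA 1 in HER2 cells, while WWTR1 was higher with siRNA 3 in both lines. The part of knockdown depth was not tested.

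The interaction of HER2 with siRNA called 0% of all genes and 0 of 37 members by edgeR's quasi-likelihood test, with a lowest adjusted p of 0.232 among members. Its estimates were positive for all 37 (median 1.55 on the log2 scale, 0.25 to 2.82) and for 8712 of 16117 genes tested. Each estimate covers both reagents together, under the shared term. With siRNA 1 the observed median log2 ratios were -2.57 in empty-vector and -0.30 in HER2 cells, and with siRNA 3 they were -2.24 and -1.63. With siRNA 3 the observed ratios of POLA1, POLE and RFC4 were lower in HER2 than in empty-vector cells. At an unadjusted p under 0.05 the edgeR count was 19 of 37, against 15% of all genes, and DESeq2 called 15 members, against 3.91%.

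Other genes of DNA replication and of the cell cycle were taken from further lists. Of all genes tested 9.95% were called lower on the hydrogel in empty-vector cells, 6.56% with siRNA 1 and 16.6% with siRNA 3. Called higher there were 1650, 1209 and 2420 of 16117, in the same order. In HER2 cells 72 genes were called lower with siRNA 1. There siRNA 3 gave 6.28% called lower and 978 genes called higher. The counts of list genes from here on are to be read beside these. Of 36 other replication genes, in empty-vector cells 21 fell on soft support (median -1.20 on the log2 scale), 19 fell and 1 rose with siRNA 1 and 26 fell and 1 rose with siRNA 3. The 3 with the largest hydrogel changes were DSCC1, part of the alternative clamp loader with CHTF18 (-3.08 ± 0.67, adjusted p = 0.0372 by edgeR's quasi-likelihood test), the histone chaperone ASF1B (-2.93 ± 0.38, adjusted p = 0.0168) and CLSPN, a replication checkpoint mediator (-2.81 ± 0.35, adjusted p = 0.0162). In HER2 cells 0 of the 36 passed on the hydrogel and with siRNA 1, and with siRNA 3 POLD4, a small subunit of polymerase delta, rose (2.01 on the log2 scale) and 4 fell, among them TICRR, a helicase activation factor (-2.23 ± 0.29, adjusted p = 0.025), CLSPN (-2.22 ± 0.34, adjusted p = 0.0285) and the maintenance methyltransferase DNMT1 (-2.03 ± 0.32, adjusted p = 0.029).

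In empty-vector cells all 30 genes of a mitosis list fell on the hydrogel and with each siRNA, with medians of -2.76 (hydrogel), -2.60 (siRNA 1) and -3.55 (siRNA 3) on the log2 scale. In HER2 cells 0 passed on the hydrogel (median -0.36), MKI67 alone fell with siRNA 1 (-1.60) and 18 fell with siRNA 3 (median -1.83). On the hydrogel all 30 were higher in HER2 than in empty-vector cells, against 11% of all genes tested that were called higher.

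Of 13 E2F and pocket protein genes, in empty-vector cells 4 were lower on the hydrogel, with E2F1, an activator (-3.10 ± 0.63, adjusted p = 0.0327 by edgeR's quasi-likelihood test), and E2F7, a repressor (-2.89 ± 0.43, adjusted p = 0.0201), at the head. E2F8, another repressor, was at -1.99 ± 0.53 (adjusted p = 0.0562) and did not pass. E2F1 was at 25.9 and 22.5 CPM in the empty-vector controls, 2.46 after siRNA 1, 4.24 after siRNA 3 and 2.81 on the hydrogel, and in HER2 cells at 16.8, 19.2, 9.11 and 31.1 CPM, in the order control, siRNA 1, siRNA 3, hydrogel. Its HER2 libraries were all above the perturbed empty-vector libraries. In HER2 cells E2F8 fell with siRNA 3 (-2.62 ± 0.55, adjusted p = 0.0442).

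Of 16 G1 cyclins, kinases and inhibitors, 14 were tested, since CDKN2A and CDKN2B did not pass the count filter. On the hydrogel in empty-vector cells 6 fell and 2 rose, the largest being CDKN1C, an inhibitor of cyclin-dependent kinases (4.68 ± 0.62, adjusted p = 0.0172 by edgeR's quasi-likelihood test), CCNE2, a cyclin that drives S phase entry (-2.36 ± 0.47, adjusted p = 0.0321), and CDC25A, a phosphatase that activates the kinases (-2.30 ± 0.45, adjusted p = 0.0302). CDKN1C started from a low level, at 0.73 and 0.52 CPM in the empty-vector controls, and was at 16.0 CPM on the hydrogel. CDKN1A, another kinase inhibitor, was at 130 and 117 CPM in the empty-vector controls, 267 after siRNA 1, 343 after siRNA 3 and 287 on the hydrogel. In HER2 cells CDKN1A was at 20, 89.8, 132 and 54.9 CPM, in the order control, siRNA 1, siRNA 3, hydrogel. It rose in HER2 cells with siRNA 1 (2.22 ± 0.17, adjusted p = 0.0336) and with siRNA 3 (2.67 ± 0.17, adjusted p = 0.0163), and was lower in HER2 than in empty-vector cells on plastic (-2.63 ± 0.17, adjusted p = 0.00326). The HER2 libraries with siRNA were near the empty-vector controls and below the perturbed empty-vector libraries.

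Of the members, 17 share exon sequence with another gene in GENCODE v29, 14 of them with a gene on the opposite strand, and FEN1, PCNA, RFC3, RFC5, RRM2 and TYMS have named pseudogenes. The strand setting of the counts is not given in the sources used here, so reads of overlapping genes, or of near-identical copies, cannot be told apart for these members.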

How the data were processed

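RNA-seq counts per gene symbol were analysed in 9 libraries of 8 groups. The authors deposited raw counts, not normalized; per the submitters' processing notes, STAR 2.5.3a, featureCounts and edgeR were used with build hg19. Strand, annotation and multiply mapping reads are not given in the sources used here. The entry with no symbol held 0% of counts.

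Counts were tested in R 4.3.3 with edgeR 4.0.16 (filterByExpr minimum count 10, TMM, quasi-likelihood F test, Benjamini-Hochberg adjustment over 16117 genes, threshold 0.05). The model had 6 group means and 1 common term for the step from siRNA 1 to siRNA 3, with 2 residual degrees of freedom and a biological coefficient of variation of 0.209. These degrees of freedom come from control A against B and from the difference in that step between the lines. For the members the step had medians of 0.29 (empty vector) and -1.25 (HER2), and this difference enters the SE of every comparison, the hydrogel included. The pairing rests on the siRNA number in the labels, which was read as a reagent. The labels do not say whether it also marks a batch or day. The difference between the siRNAs correlated between the lines at 0.415 over 16117 genes, with 2 pairs only. Observed log2 ratios used CPM with a prior count of 2. Controls A and B differed by more than sampling noise (chi-square per degree of freedom 11.5 over 14248 genes) and were kept as 2 replicates.

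Alternatives were RLE scaling, no filter, DESeq2 1.42.0, the siRNAs pooled, a mean for each of the 8 groups, and leaving out control A or B. The pipeline was tested on simulated data. Tables were made in Python 3.11.15 with pandas 2.3.3. Members and lists were chosen with earlier results of these data known. All values in every library are given for the member of each role with the highest mean CPM and for that with the largest hydrogel change in empty-vector cells; elsewhere up to 10 members past the threshold were named by size. Of other lists, the 3 genes with the largest change were named. Values of POLE, TK1, GINS2, GINS3, RFC4, POLD4, E2F1, CDKN1A and CDKN1C given outside this rule were chosen after their values were seen.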

Additional observations from a re-analysis of the deposited data

Results flagged for a closer look

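The order of the reagents differed between the lines. Over the 37 members the median log2 difference between siRNA 3 and siRNA 1 was 0.29 in empty-vector cells and -1.25 in HER2 cells. Higher with siRNA 3 in the one line and lower in the other were 24 members, against 15.1% of all genes tested. Each value rests on 1 library per reagent and line, and the difference between the lines was not tested.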

How the results depend on the processing

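The number of members past the threshold depended on how the spread was estimated. With no replicate block (siRNA 1 and siRNA 3 pooled as replicates, no pairing by reagent) 0 members passed in any of the comparisons that gave a value. That fit also called 0 of all genes for the hydrogel, siRNA 1 and siRNA 3 in empty-vector cells. There the 0 is not particular to the members. With DESeq2 the counts were 4 for HER2 against empty vector on plastic, 37 for siRNA 1 in empty-vector cells, 2 and 16 for siRNA 1 and siRNA 3 in HER2 cells, 10 for siRNA 3 against siRNA 1, and 30 and 15 for the interactions of HER2 with hydrogel and with siRNA. With a mean for each of the 8 groups, where the spread comes from controls A and B alone, they were 18 for hydrogel in HER2 cells, 29 for HER2 on plastic, 37 for siRNA 1 in empty-vector cells, 23 and 37 for siRNA 1 and siRNA 3 in HER2 cells, 33 for siRNA 3 against siRNA 1, and 37 and 36 for the interactions. Over all genes, the highest count in any setting was 7909 for hydrogel in HER2 cells and 9620 for HER2 on plastic. It was 10001 for siRNA 1 in empty-vector cells, and 7466 and 9079 for siRNA 1 and siRNA 3 in HER2 cells. For siRNA 3 against siRNA 1 it was 9975, and for the interactions 8526 and 6629. Member counts are to be read beside these. For HER2 on plastic and for siRNA 3 against siRNA 1, the share of all genes called by DESeq2 is not given here. The DESeq2 counts of 4 and 10 members are therefore not read as a result about the members. The cause of the dependence was not tested.

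Without control A or without control B, members called were 9 and 7 for the hydrogel and 8 and 6 for siRNA 1 in empty-vector cells, 27 and 28 for siRNA 3 there, 30 and 29 for HER2 on the hydrogel, 1 and 1 for siRNA 3 against siRNA 1, and 0 for HER2 on plastic and for siRNA 3 in HER2 cells. The median observed log2 ratio was -2.62 without A and -2.59 without B for siRNA 1 in empty-vector cells, and -2.43 without A and -2.35 without B for the hydrogel. These fits have 1 residual degree of freedom. No called member reversed its direction under any alternative run. RLE scaling and no filter left each count within 1.5 times its main value, as did the prior count of 0.5 for the medians. Most groups hold 1 library, which limits every test here.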
